A study of Mus musculus with 38 samples.

Results

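Solute carriers are membrane proteins that move amino acids, sugars, metals, vitamins, lipids and inorganic ions into or out of cells and organelles, and they are named by family (SLC) and member. The genes described here are those with a symbol of the form Slc, family number, letter a, member number in the 8 GC-normalized RNA libraries. The mitochondrial Slc25 family was left out, as were Slc3a2 and Slc7a5, and at least 1 RPKM (a read count divided by gene length and library size) was required in at least 2 of the 8 libraries. Of 173 matching entries, 38 were Slc25 genes and 2 were Slc3a2 and Slc7a5, which left 133, of which 121 reached the level. These 121 were members among 11441 genes that the GC-normalized tables list once. Only symbols with the letter a match, so carriers named with other letters, such as the Slc35 families b to f, are not among them.

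By family, the label held for 118 of the 121. The other 3 matched by name only: Slc4a1ap is named as an adaptor of a carrier, Slc9a3r1 is a scaffold protein that binds an exchanger, and Slc7a6os is a neighbour of Slc7a6 transcribed from the opposite strand. The 118 carriers were sorted by the textbook substrate of their family: 28 carry amino acids or peptides, 25 metals, 21 inorganic ions or protons, 16 sugars or monocarboxylates, 13 vitamins, nucleosides or choline, 10 lipids or organic ions, and 5 bring donors such as nucleotide sugars and acetyl-CoA into the Golgi or the endoplasmic reticulum (ER). Slc43a3, a carrier of purine bases, was counted with its family among the 28. By contrast Slc16a10, an aromatic amino acid carrier, was sorted by its own substrate, apart from other Slc16 members, and is also among the 28. Slc22a17, described as a receptor for a siderophore-binding protein, was counted with its family among the 10. In all 8 GC-normalized libraries 96 of the 121 were at 1 RPKM or more. Only in 1 group did both libraries reach it for 4 members (Slc12a8, Slc16a3, Slc23a1 and Slc39a8), and in no group for 3 (Slc4a3, Slc11a1 and Slc15a2). By their second highest library, the members just inside the threshold were Slc4a3 at 1.01, Slc11a1 at 1.14, Slc12a8 at 1.15 and Slc39a8 at 1.23 RPKM. Just outside it were Slc9a5 at 0.820, Slc14a1 at 0.812, Slc26a10 at 0.757 and Slc16a8 at 0.721 RPKM.

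The study followed mouse B cells on the way to antibody secretion and the part played by Blimp1, a transcriptional regulator encoded by Prdm1. RNA was measured in 14 libraries, 2 for each of 7 groups, and 24 further samples of chromatin assays are not analysed here. All mice were C57BL/6 and carried 1 Blimp1 allele with a GFP reporter. B cells of the genotype Blimp1(GFP/+) Cd23(Cre/+) were cultured for 4 days with lipopolysaccharide (LPS), a bacterial product that activates B cells, and sorted into 3 groups. The activated B cells were CD138–GFP–, the pre-plasmablasts had gained the reporter (CD138–GFP+), and in the plasmablasts both were present (CD138+GFP+). Blimp1-deficient pre-plasmablasts came from the same kind of culture of Blimp1(GFP/fl) Cd23(Cre/+) cells, in which Cre driven from the B cell gene Cd23 removes the floxed allele, and were sorted as CD138–GFP+CD22hi. Genotype and sorting gate thus differ together between deficient and control pre-plasmablasts. Pre-plasmablasts of Blimp1(GFP/+) cells without Cd23-Cre were cultured for 4 days with LPS and either DMSO, the solvent, or GSK343, a compound that blocks EZH2, an enzyme that methylates histones. Plasma cells were sorted directly from Blimp1(GFP/+) mice as CD28+CD138+GFP+Lin-. The labels do not state whether the paired libraries of each group were separate mice or cultures; all p-values therefore reflect the scatter of these libraries, which may be technical.

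Prdm1 itself read 7.45 and 10.7 RPKM in activated B cells, 429 and 327 in control pre-plasmablasts and 199 and 171 in the deficient ones, so its transcript was lower in the deficient libraries but still present. Whether these reads include the deleted part is not given in the sources used here. All 6 B cell markers and all 6 plasma cell markers were at 0 in none of the activated B cell, control pre-plasmablast and plasmablast libraries, and from activated B cells to control pre-plasmablasts 4 of the 6 B cell markers were lower and 6 of the 6 plasma cell markers higher by limma. Summed plasma cell markers were 85.7 to 245 RPKM in activated B cells, 3539 to 12000.0 in control pre-plasmablasts and plasmablasts, 422 to 531 in deficient pre-plasmablasts, and 23580.0 to 27460.0 in ex vivo plasma cells. In the GC-normalized libraries the only listed T cell marker, Cd5, stayed below 1 RPKM. Of 7 myeloid markers 2 were listed there, Tyrobp and Itgam. Their sum was 22.0 to 28.6 RPKM in activated B cells, 3.88 to 4.28 in control pre-plasmablasts, 0.762 to 1.83 in plasmablasts and 28.2 to 31.1 in deficient pre-plasmablasts. The 3 of 8 erythroid or megakaryocyte markers listed summed, in the same order of groups, to 13.1 to 18.6, 3.45 to 4.21, 2.15 to 2.36 and 13.5 to 15.0 RPKM. The 3 of 6 natural killer or dendritic markers listed, Flt3 foremost, summed to 51.3 to 59.1, 21.5 to 25.5, 9.33 to 9.44 and 30.8 to 37.2 RPKM. Their part in the results was not tested. In sorted bulk cells, fewer cells of a type and less RNA per cell cannot be told apart.

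As background, a cell that secretes antibody has to import amino acids in bulk, keep zinc, calcium and manganese in the secretory pathway, and bring sugar nucleotides and acetyl groups into its lumen. Cells sense amino acid shortage through the transcription factor ATF4, which acts on many amino acid carriers, and ER load through XBP1 and ATF6. Zinc excess is sensed by MTF1. Zinc importers of the Slc39 family move zinc into the cytosol, and Slc30 transporters move it out of the cytosol into organelles or the outside.

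RefSeq promoter windows of 300 bases (250 before and 50 after the start, assembly GRCm38.p6, which is not the build of the files) were matched for 92 of the 121 members. The letters TGACGTGG, an element bound by XBP1 and ATF6, stood on either strand in the windows of 5 members (5.43% of 92), against 0.714% of 27025 genes. These 5 were Slc30a5, Slc39a13, Slc22a17, Slc7a6 and Slc39a5. The stretches from 80 bases before to 20 after the start are printed for these 5 because they are all the members with that element, with its letters in capitals, 5′ to 3′ on the gene's strand.
Slc30a5 (chr13:100833408-100833507, minus strand): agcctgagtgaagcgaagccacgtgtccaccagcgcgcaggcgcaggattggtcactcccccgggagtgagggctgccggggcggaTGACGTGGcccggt
Slc39a13 (chr2:91070296-91070395, minus strand): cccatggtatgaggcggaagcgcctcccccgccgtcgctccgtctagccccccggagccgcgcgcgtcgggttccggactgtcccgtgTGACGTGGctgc
Slc22a17 (chr14:54913113-54913212, minus strand): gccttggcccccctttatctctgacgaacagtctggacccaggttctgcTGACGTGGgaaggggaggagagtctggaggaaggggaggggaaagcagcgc
Slc7a6 (chr8:106168774-106168873, plus strand): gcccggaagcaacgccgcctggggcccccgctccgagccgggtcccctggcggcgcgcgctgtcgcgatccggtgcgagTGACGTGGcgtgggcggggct
Slc39a5 (chr10:128400447-128400546, minus strand): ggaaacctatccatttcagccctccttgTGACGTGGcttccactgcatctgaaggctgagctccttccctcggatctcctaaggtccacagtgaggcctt

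The ATF4 element TGATGNAA was found in 4 members (4.35%), against 4.51% of genes, a share near that of all promoters. Slc7a11 and Slc1a4, amino acid exchangers known as ATF4 targets, are 2 of the 4, and their stretches are printed with the element in capitals on whichever strand it reads.
Slc7a11 (chr3:50443594-50443693, minus strand): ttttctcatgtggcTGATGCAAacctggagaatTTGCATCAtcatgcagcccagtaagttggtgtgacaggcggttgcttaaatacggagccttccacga
Slc1a4 (chr11:20332694-20332793, minus strand): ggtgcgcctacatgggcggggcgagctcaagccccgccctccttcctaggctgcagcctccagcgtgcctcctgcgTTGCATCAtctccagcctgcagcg

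The metal response element in its forms TGCGCNC and TGCACNC stood in 25 members (27.2%, against 17.0% of genes) and 23 members (25.0%, against 14.2%). GAAAGTGA, letters within the Blimp1 site, stood in 2 members, Slc37a1 and Slc7a7 (2.17%, against 1.71%). In all these motif counts the 27025 genes were not limited to expressed ones, as the members were. Of the matched members 23 had more than 1 window, any of which could hold a match. A match is a description of letters, not of binding.

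Amino acid carriers such as Slc7a3 and Slc1a1 and zinc carriers such as Slc39a4 and Slc39a7 were higher in pre-plasmablasts than in activated B cells, while the choline carrier Slc44a2, the hexose carrier Slc2a6 and the taurine carrier Slc6a6 were lower. By limma on log2(RPKM + 1), a scale that understates changes of low genes, 53 of the 121 members were higher and 24 lower at an adjusted p below 0.05, 44 did not pass, and every adjusted p is from limma. That is 43.8% higher against 20.2% of 10473 genes tested, and 19.8% lower against 28.0%, with 48.2% of all genes called either way. The median log2 fold change was 0.24 over members and -0.12 over all genes. Under median-of-ratios scaling these medians were 0.33 and -0.02. As deposited, 23 called members rose and 11 fell at least 2-fold. The share of all genes tested at that cut was not computed, here or in the comparisons below.

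**Figure D1:**
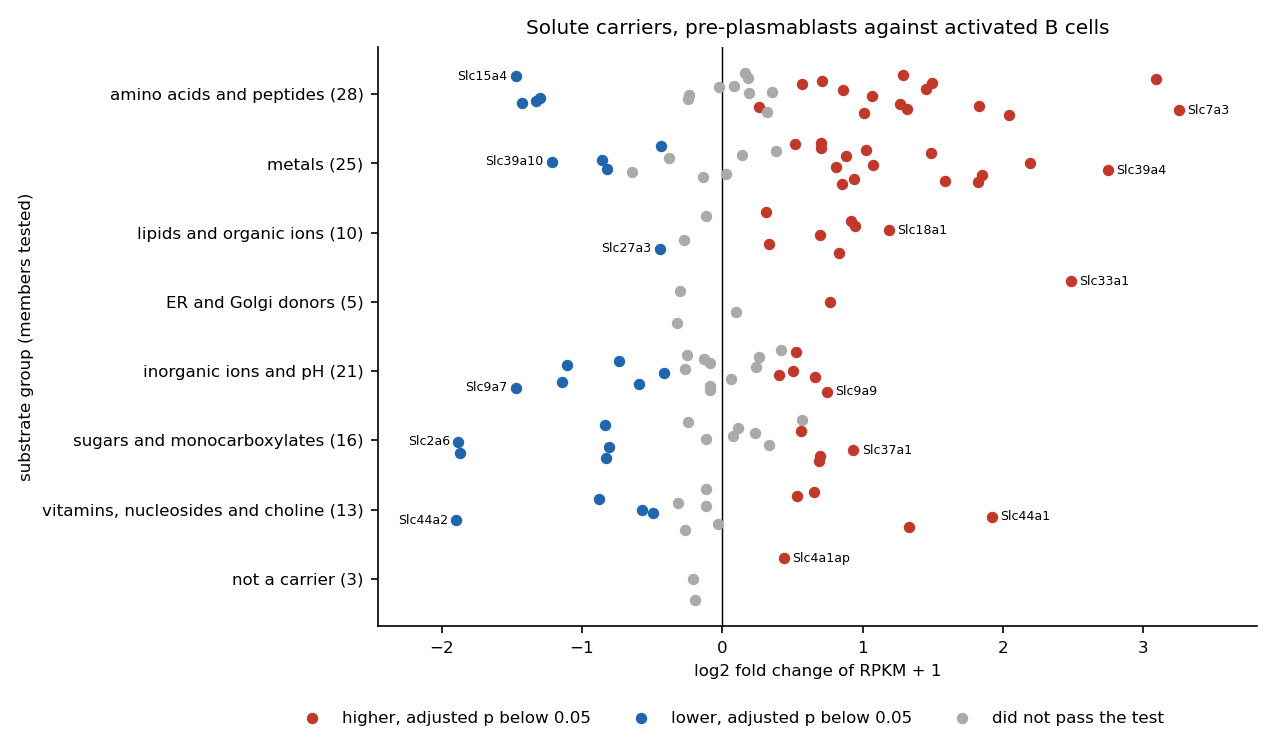
Each point is 1 of the 121 members by substrate group, placed on the horizontal axis by its log2 fold change of RPKM + 1 between the means of 2 pre-plasmablast and 2 activated B cell libraries; red and blue points passed the test. In amino acid carriers 15 points are red and 4 blue, and in metal carriers 15 are red and 4 blue.

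Amino acid and peptide carriers were higher in 15 and lower in 4 of 28 (median log2 fold change 0.46). Slc7a3, a carrier of arginine and lysine, read 3.87 and 6.38 RPKM in the 2 activated B cell libraries and 51.5 and 61.2 in the 2 pre-plasmablast libraries (log2 fold change 3.25 ± 0.25 SE, adjusted p = 0.000114). The 2 groups lay far apart, and further pairs of values are given in the same order. Slc7a3 overlaps Snx12 in the GRCm38 annotation, and its reads are less certain, since use of strand in counting is not given in the sources used here. The glutamate carrier Slc1a1 read 0.197 and 0.168 RPKM in activated B cells and 9.70 and 8.44 in pre-plasmablasts (log2 fold change 3.09 ± 0.12 SE, adjusted p = 1.54e-05). It went from close to 0 to a moderate level. The amino acid exchanger Slc7a8, a partner of Slc3a2, read 0.00671 and 0.177, then 3.54 and 3.45 RPKM (log2 fold change 2.05 ± 0.11 SE, adjusted p = 3.69e-05).

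Of the abundant members, the glutamine carrier Slc1a5 rose from 96.3 and 117 to 282 and 321 RPKM (log2 fold change 1.50 ± 0.13 SE, adjusted p = 0.000198), and Slc38a10, a carrier of the glutamine family, from 30.2 and 28.8 to 83.0 and 81.5 (log2 fold change 1.45 ± 0.09 SE, adjusted p = 5.74e-05). These were the most abundant amino acid carriers over the 8 libraries. The glycine carrier Slc6a9, which overlaps Ccdc24, read 5.19 and 5.21, then 21.0 and 20.9 RPKM. The cystine exchanger Slc7a11, whose promoter is printed above, read 0.182 and 0.19, then 2.07 and 1.85 RPKM (log2 fold change 1.32 ± 0.11 SE, adjusted p = 0.000131). Slc1a4, a carrier of alanine, serine and cysteine, read 6.11 and 5.54, then 10.3 and 9.99 RPKM (log2 fold change 0.71 ± 0.12 SE, adjusted p = 0.00306). Both are low to moderate, and in both the 2 groups did not overlap.

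The 4 amino acid and peptide carriers that fell were Slc15a4, Slc6a6, Slc6a13 and Slc43a2. Slc15a4, an endolysosomal histidine and peptide carrier that Toll-like receptor signalling needs, read 56.9 and 65.6 RPKM in activated B cells and 18.2 and 25.2 in pre-plasmablasts (log2 fold change -1.47 ± 0.22 SE, adjusted p = 0.00183). It overlaps Glt1d1. The taurine carrier Slc6a6 fell from 44.4 and 41.4 to 15.8 and 14.9 RPKM (log2 fold change -1.43 ± 0.10 SE, adjusted p = 8.32e-05). The leucine carrier Slc43a2 read 19.5 and 16.6, then 7.18 and 6.29, and Slc6a13, a carrier of GABA and taurine, 3.51 and 3.26, then 0.75 and 0.748 RPKM. All 4 pairs of groups were apart by more than the spread of their libraries.

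Metal carriers were higher in 15 and lower in 4 of 25 (median log2 fold change 0.70). The zinc importer Slc39a4 read 4.40 and 3.90 RPKM in activated B cells and 33.5 and 33.6 in pre-plasmablasts (log2 fold change 2.75 ± 0.09 SE, adjusted p = 1.54e-05). Slc39a7, which releases zinc from the ER and Golgi, was the most abundant metal carrier and read 84.3 and 82.0, then 306 and 300.4 RPKM (log2 fold change 1.85 ± 0.08 SE, adjusted p = 1.71e-05). Slc39a11, another zinc carrier, which overlaps Cog1 and Sstr2, read 6.57 and 6.89, then 34.2 and 34.4 RPKM (log2 fold change 2.19 ± 0.10 SE, adjusted p = 1.84e-05). In these 3 the replicates lay within a few RPKM of each other in relation to the gap. The magnesium carriers Slc41a1 and Slc41a2 rose as well, from 7.81 and 10.8 to 26.4 and 33.2 RPKM and from 0.327 and 0.454 to 4.17 and 3.66 RPKM.

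Of 4 further zinc carriers, chosen after their values were seen, 3 were called higher. Slc30a5, a Golgi zinc transporter, read 22.4 and 26.9, then 46.9 and 55.4 RPKM (log2 fold change 1.03 ± 0.15 SE, adjusted p = 0.00163). Slc30a7, another Golgi zinc transporter, read 3.61 and 3.01, then 13.0 and 9.37 RPKM (log2 fold change 1.49 ± 0.18 SE, adjusted p = 0.000804). Slc39a13, a zinc carrier of the early secretory pathway, read 8.35 and 8.02, then 19.9 and 16.8 RPKM (log2 fold change 1.07 ± 0.14 SE, adjusted p = 0.00104). Slc30a6, which also serves the Golgi, read 10.4 and 7.73, then 15.0 and 9.63 RPKM (log2 fold change 0.39 ± 0.26 SE, adjusted p = 0.273) and was not called, though it was in a fit that pairs libraries by number, the replicate block (adjusted p = 0.00475). Of the 5 members with TGACGTGG in the promoter, Slc30a5, Slc39a13 and Slc22a17 were called higher. Slc7a6 (0.32) and Slc39a5 (-0.65) were not called, these values being log2 fold changes, but were with the replicate block (adjusted p = 0.0151 and 0.0119). Slc22a17, a receptor for a siderophore-binding protein, read 1.36 and 1.4, then 2.82 and 2.89 RPKM, and its adjusted p was 0.0195, or 0.0682 to 0.0814 without any 1 of these 4 libraries.

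The metal carriers that fell were Slc39a10, Slc39a1, Slc39a3 and Slc30a1, all of them zinc carriers placed at the plasma membrane in textbooks. Slc39a1 read 42.9 and 39.2 RPKM in activated B cells and 23.1 and 21.3 in pre-plasmablasts. Slc39a10 read 4.93 and 5.79, then 1.61 and 1.87 RPKM. Slc30a1, the zinc exporter of the plasma membrane, read 3.89 and 3.80, then 2.59 and 2.57 RPKM, with an adjusted p of 0.037 from limma. That p was 0.0822 under median-of-ratios scaling, 0.0872 under quantile normalization, and 0.0530 to 0.134 without any 1 activated B cell, pre-plasmablast or plasmablast library. The heme carrier Slc48a1, which overlaps Hdac7, was the second most abundant metal carrier and rose from 36.3 and 39.6 to 71.3 and 67.7 RPKM.

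The ER and Golgi group had 2 of 5 higher and none lower. Slc33a1, which brings acetyl-CoA into the ER for protein acetylation, read 9.68 and 9.16 RPKM in activated B cells and 64.0 and 51.2 in pre-plasmablasts (log2 fold change 2.48 ± 0.12 SE, adjusted p = 2.67e-05). It overlaps Gmps. The UDP-galactose carrier Slc35a2 read 10.5 and 13.2, then 18.2 and 23.6 RPKM (log2 fold change 0.77 ± 0.21 SE, adjusted p = 0.0221), a call lost without the first activated B cell library (adjusted p = 0.114) or the second pre-plasmablast library (adjusted p = 0.108). With libraries paired by number, Slc35a2 rose from 10.5 to 18.2 and from 13.2 to 23.6 RPKM. Slc35a4, the other abundant member, which overlaps Apbb3, read 39.3 and 37.0, then 41.8 and 40.1 RPKM and was not called.

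Lipid and organic ion carriers were higher in 7 and lower in 1 of 10. The vesicular nucleotide carrier Slc17a9 read 15.2 and 15.3, then 30.2 and 30.4 RPKM (log2 fold change 0.94 ± 0.10 SE, adjusted p = 0.000425), and the lysosomal sialic acid exporter Slc17a5 4.84 and 4.61, then 10.4 and 9.25. Slc18a1, a vesicular amine carrier that overlaps Atp6v1b2, read 0.139 and 0.124, then 1.62 and 1.53 RPKM, which is low in both. The fatty acid carrier Slc27a3 was the 1 that fell, with an adjusted p of 0.0488. That p was 0.0875 under median-of-ratios scaling, 0.0603 with a pseudocount of 0.25, and 0.0651 to 0.205 without any 1 activated B cell, control pre-plasmablast or deficient pre-plasmablast library.

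Carriers of choline, vitamins and nucleosides split, with 4 higher and 4 lower of 13. The choline carrier Slc44a1 read 0.972 and 2.61 RPKM in activated B cells and 6.23 and 13.0 in pre-plasmablasts (log2 fold change 1.92 ± 0.53 SE, adjusted p = 0.0237). Its replicates differed by more than those of the genes above, and its adjusted p was 0.119 without the first activated B cell library and 0.113 without the second pre-plasmablast library. Paired by library number, Slc44a1 rose from 0.972 to 6.23 and from 2.61 to 13.0 RPKM. Its relative Slc44a2 went the other way, from 76.6 and 74.2 to 18.6 and 20.5 RPKM (log2 fold change -1.89 ± 0.13 SE, adjusted p = 7.63e-05). Slc46a3, a lysosomal carrier, read 3.65 and 4.56, then 11.1 and 12.5 RPKM, and the vitamin C carrier Slc23a2 16.2 and 15.9, then 8.45 and 8.05. The reduced folate carrier Slc19a1, at 23.1 and 19.4, then 20.9 and 18.0 RPKM, was not called.

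Sugar and monocarboxylate carriers were higher in 4 and lower in 5 of 16. The lysosomal glucose carrier family member Slc2a6 was the most abundant of them and fell from 129 and 124 to 35.6 and 31.6 RPKM (log2 fold change -1.88 ± 0.10 SE, adjusted p = 3.17e-05). The sugar phosphate exchanger Slc37a2 fell from 5.51 and 4.62 to 0.576 and 0.747 RPKM (log2 fold change -1.87 ± 0.16 SE, adjusted p = 0.000162), while its relative Slc37a1 read 1.66 and 1.03, then 3.98 and 2.95 and was higher. The main glucose carrier Slc2a1 read 17.2 and 18.8, then 17.8 and 20.2 RPKM (log2 fold change 0.07 ± 0.12 SE, adjusted p = 0.65). The lactate carrier Slc16a1 read 22.5 and 15.5, then 35.4 and 22.3 RPKM (log2 fold change 0.57 ± 0.27 SE, adjusted p = 0.13). Neither Slc2a1 nor Slc16a1 was called, though Slc16a1 was with the replicate block (adjusted p = 0.000685).

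Inorganic ion and proton carriers were higher in 5 and lower in 6 of 21, and 8 and 5 under median-of-ratios scaling. The endomembrane sodium-proton exchanger Slc9a7, which overlaps Chst7, fell from 25.1 and 27.7 to 8.43 and 9.33 RPKM (log2 fold change -1.47 ± 0.16 SE, adjusted p = 0.000427). The phosphate carrier Slc20a2, which overlaps Smim19, fell from 11.5 and 11.8 to 4.93 and 4.80 RPKM. The bicarbonate carrier Slc4a8 fell from 5.47 and 4.60 to 1.77 and 1.68 RPKM.

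**Figure D2:**
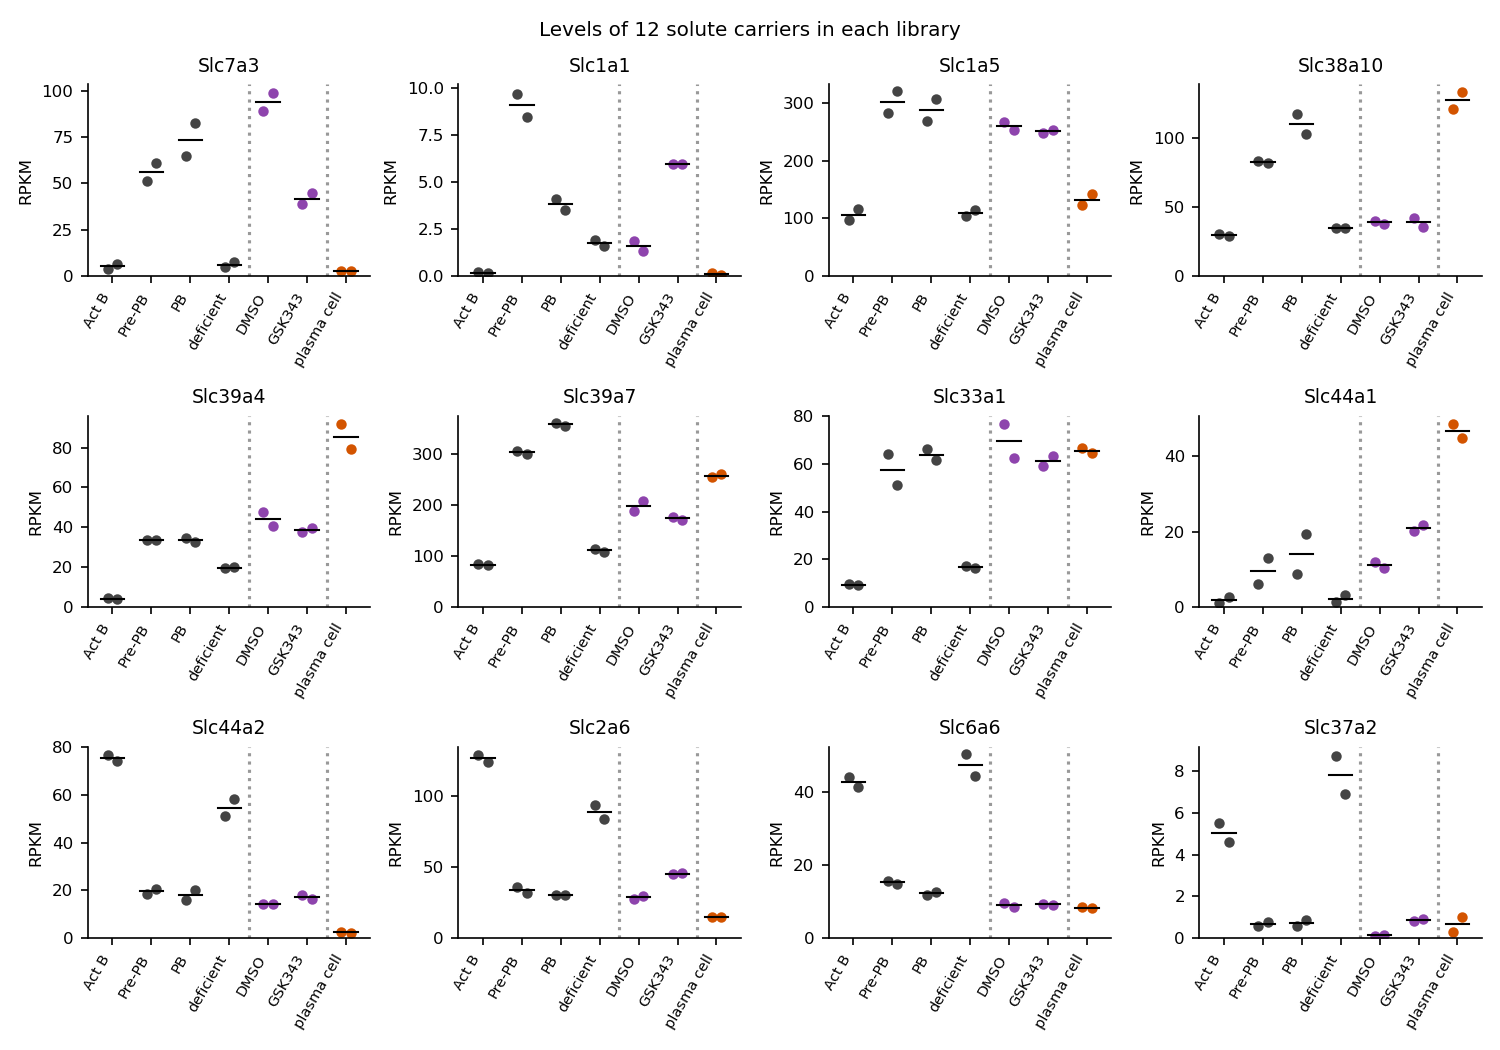
Each panel plots 1 carrier in RPKM from 0, with 1 point per library and a line at the mean of the 2 libraries of a group; dotted lines separate the GC-normalized, inhibitor and plasma cell tables, between which levels are not tested. Slc7a3 is high in pre-plasmablasts, plasmablasts and both inhibitor groups and at or under 7.29 RPKM in the other 3 groups.

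A list of 30 carriers and partners without a matching symbol was set beside the members. Of its 25 tested genes, 11 were higher and 4 lower in pre-plasmablasts. Bsg, a chaperone of lactate and amino acid carriers, read 148 and 161, then 429 and 494 RPKM (log2 fold change 1.57 ± 0.12 SE, adjusted p = 9.54e-05). Magt1, a magnesium carrier and subunit of the glycosylation complex, read 21.2 and 26.8, then 100.1 and 111 RPKM. The organic anion carrier Slco4a1 read 2.70 and 3.34, then 37.3 and 36.9 RPKM (log2 fold change 3.25 ± 0.11 SE, adjusted p = 1.54e-05). Of 13 tested genes of metal storage and uptake, 4 were higher and 3 lower. The zinc-binding metallothioneins Mt1 and Mt2 were among the former, Mt2 reading 12.2 and 10.4, then 134 and 97.7 RPKM (log2 fold change 3.24 ± 0.24 SE, adjusted p = 9.39e-05). The zinc sensor Mtf1 read 7.34 and 7.70, then 8.87 and 7.73 RPKM and was not called.

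From pre-plasmablasts to plasmablasts few members were called in the fit without the replicate block. Slc7a8 rose from 3.54 and 3.45 to 8.59 and 8.18 RPKM (log2 fold change 1.06 ± 0.11 SE, adjusted p = 0.00969) and Slc1a1 fell from 9.70 and 8.44 to 4.08 and 3.53 RPKM (log2 fold change -1.07 ± 0.12 SE, adjusted p = 0.0113), so that 1 member was higher and 1 lower (0.826% each, against 0.716% and 1.62% of all genes tested, or 2.34% either way). Both calls were lost when any 1 of the 4 libraries compared was left out (0 called, with 20 to 25 members at an unadjusted p below 0.05), and in a fit of these 2 groups alone (0 called by limma, 26 unadjusted). Slc7a8 also lost its call with a pseudocount of 0.25 (adjusted p = 0.0757).

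The libraries carry 2 series of numbers that pair across groups, and with this replicate block 19 members were called higher and 19 lower between plasmablasts and pre-plasmablasts (15.7% each, against 7.00% and 13.3% of all genes tested). Under the block, Slc41a1 had a log2 fold change of 0.65 ± 0.08 SE with an adjusted p of 0.00163 from limma, and read 26.4 and 33.2 RPKM in pre-plasmablasts and 41.1 and 53.5 in plasmablasts. Slc17a5 read 10.4 and 9.25, then 15.5 and 14.0 RPKM (blocked log2 fold change 0.54 ± 0.07 SE). Slc38a10 read 83.0 and 81.5, then 117 and 103 RPKM (0.42 ± 0.06 SE). In each of the 3 both plasmablast libraries were above both pre-plasmablast libraries. Among those lower under the block, Slc9a7 read 8.43 and 9.33, then 5.21 and 6.79 RPKM and Slc23a2 8.45 and 8.05, then 5.78 and 5.52.

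Plasmablasts against activated B cells gave 54 members higher and 33 lower (44.6% and 27.3%, against 21.3% and 33.9% of all genes tested), with 29 and 14 at least 2-fold. Slc7a3 reached 64.8 and 82.6 RPKM in plasmablasts (log2 fold change 3.63 ± 0.25 SE, adjusted p = 5.33e-05). Slc7a8 followed at 8.59 and 8.18 RPKM against 0.00671 and 0.177 in activated B cells (log2 fold change 3.11 ± 0.11 SE, adjusted p = 8.44e-06). Slc6a9 read 30.3 and 33.3 RPKM in plasmablasts (log2 fold change 2.40 ± 0.12 SE, adjusted p = 1.87e-05) and Slc41a1 41.1 and 53.5 (log2 fold change 2.23 ± 0.20 SE, adjusted p = 0.000156). At the other end Slc2a6 read 30.4 and 30.0 RPKM (log2 fold change -2.03 ± 0.10 SE, adjusted p = 1.66e-05), Slc44a2 16.1 and 20.3 (log2 fold change -2.0 ± 0.13 SE, adjusted p = 4.28e-05) and Slc9a7 5.21 and 6.79 (log2 fold change -1.98 ± 0.16 SE, adjusted p = 9.03e-05). By group the split was 15 higher and 4 lower of 28 amino acid and peptide carriers, 15 and 4 of 25 metal carriers, 7 and 10 of 21 inorganic ion carriers, and 3 and 7 of 13 carriers of vitamins, nucleosides and choline. The inorganic ion carriers became 8 higher and 6 lower under median-of-ratios scaling.

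Blimp1-deficient pre-plasmablasts, compared with control ones, were lower in Slc7a3, Slc1a1 and Slc39a7 and higher in the sugar phosphate exchanger Slc37a2, the hexose carrier Slc2a6, the choline carrier Slc44a2 and the taurine carrier Slc6a6. By limma, 29 of 121 members were higher and 42 lower (24.0% and 34.7%, against 24.4% and 16.1% of 10473 genes tested, or 40.4% either way), and 7 and 19 of these by at least 2-fold. The split depended on scaling: it was 18 higher and 49 lower with median-of-ratios scaling, and 19 and 49 with quantile normalization. It also depended on single libraries: 19 were higher without either control library (37 or 35 lower) and 18 without the second deficient library (35 lower). As deposited the median over all genes was 0.12 on the log2 scale, and 0.00 after median-of-ratios scaling; over the members it was -0.09 and -0.20. This comparison shares its control libraries with the one above, so the values stand side by side with no test of their relation.

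**Figure D3:**
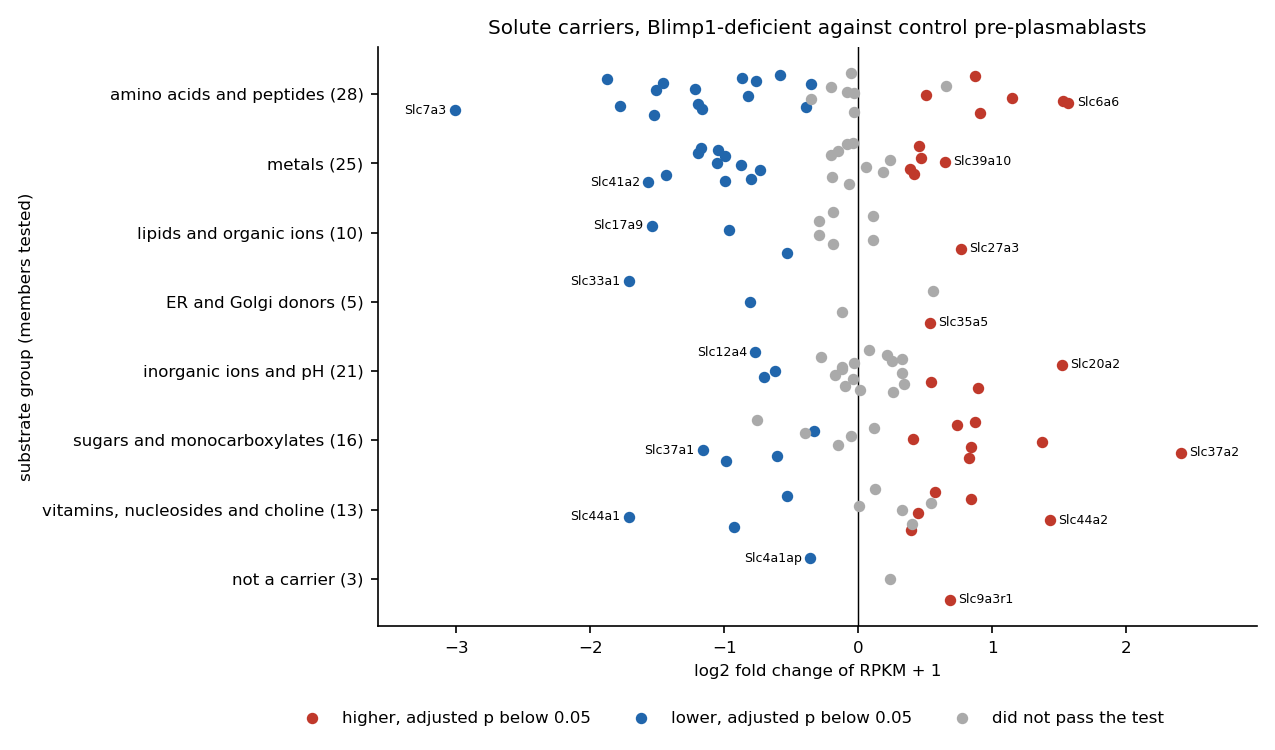
Each point is 1 member by substrate group, placed by its log2 fold change of RPKM + 1 between the means of 2 Blimp1-deficient and 2 control pre-plasmablast libraries; red and blue points passed the test. Slc7a3 is the lowest point at -3.01 and Slc37a2 the highest at 2.41.

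Amino acid and peptide carriers were lower in 15 and higher in 6 of 28. Slc7a3 read 51.5 and 61.2 RPKM in control and 5.05 and 7.29 in deficient pre-plasmablasts (log2 fold change -3.01 ± 0.25 SE, adjusted p = 0.000253), beside 3.87 and 6.38 in activated B cells. Slc1a1 read 1.89 and 1.61 RPKM in deficient pre-plasmablasts against 9.70 and 8.44 in control ones (log2 fold change -1.87 ± 0.12 SE, adjusted p = 9.75e-05). Slc6a9 fell to 4.78 and 6.09 (log2 fold change -1.78 ± 0.12 SE, adjusted p = 0.000127) and Slc7a8 to 0.611 and 0.516 RPKM (log2 fold change -1.52 ± 0.11 SE, adjusted p = 0.000158). In these 4 the deficient and control libraries did not overlap. Slc1a5 read 104 and 114 RPKM (log2 fold change -1.46 ± 0.13 SE, adjusted p = 0.000341) and Slc38a10 35.0 and 34.4 (log2 fold change -1.22 ± 0.09 SE, adjusted p = 0.000162), near the activated B cell values given above.

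The 6 amino acid and peptide carriers that were higher were Slc6a6, Slc6a13, Slc43a2, Slc7a7, Slc15a4 and Slc38a9. Slc6a6 read 50.5 and 44.4 RPKM in deficient and 15.8 and 14.9 in control pre-plasmablasts (log2 fold change 1.57 ± 0.10 SE, adjusted p = 0.0001), and Slc43a2 17.2 and 15.0 against 7.18 and 6.29 (log2 fold change 1.15 ± 0.13 SE, adjusted p = 0.000711). The cationic and neutral amino acid exchanger Slc7a7, which overlaps Oxa1l, stood apart: it read 6.18 and 8.62 RPKM in activated B cells, 14.2 and 17.4 in control pre-plasmablasts and 29.8 and 31.0 in deficient ones (log2 fold change 0.91 ± 0.17 SE, adjusted p = 0.00637). It was thus higher in both kinds of pre-plasmablast than in activated B cells, and highest in the deficient libraries. The calls of Slc15a4 and of Slc38a9, a lysosomal arginine sensor, depended on single libraries. Slc15a4, at 36.5 and 44.2 RPKM in deficient libraries, lost its call without the first control library (adjusted p = 0.0945) or the second deficient library (adjusted p = 0.0996). By pairs of library numbers, Slc15a4 read 18.2 in control and 36.5 in deficient libraries, and 25.2 and 44.2 RPKM. Slc38a9 read 6.88 and 8.80 RPKM in deficient and 5.00 and 5.37 in control libraries (log2 fold change 0.51 ± 0.16 SE, adjusted p = 0.0463). Its adjusted p was 0.0933 under median-of-ratios scaling, 0.0861 under quantile normalization, 0.0706 in a fit of the 2 groups alone, and 0.0658 to 0.208 without any 1 control, plasmablast or second deficient library.

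Metal carriers were lower in 11 and higher in 5 of 25, and 12 and 0 with median-of-ratios scaling. Slc39a7 read 115 and 109 RPKM in deficient and 306 and 300.4 in control pre-plasmablasts (log2 fold change -1.43 ± 0.08 SE, adjusted p = 6.22e-05). Slc41a2 read 0.683 and 0.633 against 4.17 and 3.66 RPKM (log2 fold change -1.57 ± 0.11 SE, adjusted p = 0.00012). Slc39a4 was lower too, at 19.4 and 20.1 against 33.5 and 33.6 RPKM (log2 fold change -0.73 ± 0.09 SE, adjusted p = 0.00124). Its deficient libraries lay between those of activated B cells (4.40 and 3.90 RPKM) and control pre-plasmablasts. Of the 4 zinc carriers chosen after their values were seen, Slc30a5 read 22.6 and 26.0, Slc30a7 4.71 and 3.88 and Slc39a13 10.5 and 8.59 RPKM in deficient libraries, and these 3 were called lower. Slc30a6 read 11.9 and 9.59 RPKM and was not called (log2 fold change -0.15 ± 0.26 SE, adjusted p = 0.684). Slc48a1 read 62.0 and 70.6 RPKM and was not called (log2 fold change -0.07 ± 0.10 SE, adjusted p = 0.614).

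In the other groups, 7 of 16 sugar and monocarboxylate carriers were higher and 4 were lower (median-of-ratios scaling gave 5 and 5), as were 5 and 3 of 13 vitamin, nucleoside and choline carriers (3 and 3), 3 and 3 of 21 inorganic ion carriers (3 and 5), 1 and 3 of 10 lipid and organic ion carriers (1 and 5) and 1 and 2 of 5 ER and Golgi carriers (0 and 2). Slc33a1 read 17.3 and 16.3 RPKM in deficient pre-plasmablasts against 64.0 and 51.2 in control ones (log2 fold change -1.71 ± 0.12 SE, adjusted p = 0.000145). Slc17a9 read 9.71 and 9.82 RPKM against 30.2 and 30.4 (log2 fold change -1.54 ± 0.10 SE, adjusted p = 0.000102). The choline carriers again went opposite ways. Slc44a2 went to 51.0 and 58.3 RPKM (log2 fold change 1.43 ± 0.13 SE, adjusted p = 0.00035). Slc44a1 went to 1.25 and 3.21 RPKM (log2 fold change -1.71 ± 0.53 SE, adjusted p = 0.0416). In pairs by library number, Slc44a1 read 6.23 in control and 1.25 in deficient libraries, and 13.0 and 3.21 RPKM. The call for Slc44a1 was lost without the second control library (adjusted p = 0.179) or without the first or second deficient library (0.191 and 0.0531). Slc37a2 read 8.76 and 6.93 RPKM against 0.576 and 0.747 (log2 fold change 2.41 ± 0.16 SE, adjusted p = 0.000102), Slc2a6 93.7 and 83.8 against 35.6 and 31.6 (log2 fold change 1.37 ± 0.10 SE, adjusted p = 0.000142), and Slc20a2 15.4 and 16.3 against 4.93 and 4.80 (log2 fold change 1.52 ± 0.09 SE, adjusted p = 7.64e-05). For Slc37a2 and Slc20a2 both deficient libraries were above both activated B cell libraries as well. As given above, summed myeloid markers were 28.2 to 31.1 RPKM in the deficient and 3.88 to 4.28 in the control libraries, and the part of such cells in these values was not tested. Of 25 tested carriers and partners with other names 6 were higher and 7 lower, and of 13 metal storage and uptake genes 5 and 3.

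Against activated B cells, deficient pre-plasmablasts differed in fewer members: 18 were higher and 7 lower (14.9% and 5.79%, against 10.4% and 7.60% of genes tested), and with the replicate block 31 and 18 (25.6% and 14.9%, against 22.1% and 20.6% of genes tested). Leaving out either library of either group left 12 to 14 called. Metal carriers, the second largest substrate group, made up 8 of the 18. Slc39a4 had the largest rise, at 19.4 and 20.1 RPKM (log2 fold change 2.01 ± 0.09 SE, adjusted p = 0.00014), followed by Slc7a7 (log2 fold change 1.92 ± 0.17 SE, adjusted p = 0.00108). The thiamine carrier Slc19a2 read 6.43 and 7.23 RPKM in activated B cells, 11.6 and 11 in control and 16.6 and 17.9 in deficient pre-plasmablasts (log2 fold change 1.22 ± 0.10 SE, adjusted p = 0.00086). Slc1a1 (log2 fold change 1.22 ± 0.12 SE, adjusted p = 0.00144) and Slc39a11 (log2 fold change 1.14 ± 0.10 SE, adjusted p = 0.000896) were also higher. The largest fall was that of Slc16a10, an aromatic amino acid carrier, from 1.57 and 1.66 to 0.681 and 0.593 RPKM (log2 fold change -0.68 ± 0.11 SE, adjusted p = 0.00735), whose adjusted p was 0.055 without the second activated B cell library. Slc38a2, a glutamine carrier regulated by amino acid supply, fell from 33.4 and 37.0 to 21.0 and 23.2 RPKM (log2 fold change -0.65 ± 0.10 SE, adjusted p = 0.00602).

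In pre-plasmablasts cultured with GSK343, the lactate exporter Slc16a3 and the arginine carrier Slc7a3 were lower than with DMSO, and the glutamate carrier Slc1a1 was higher. Several vitamin and nucleoside carriers were called higher as well, but each of these calls depended on scaling or on a single library. Of the 121 members 105 reached 1 RPKM in at least 2 of these 4 libraries and were tested. By limma 19 were higher and 10 lower (18.1% and 9.52%, against 12.7% and 5.86% of 9479 genes tested), with 2 and 2 at least 2-fold. The split was 16 and 14 with median-of-ratios scaling and 12 and 12 with quantile normalization, and 14 or 11 members in all were called without the first or the second GSK343 library. Without a filter on low values limma called 0 members, with 49 at an unadjusted p below 0.05.

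Amino acid and peptide carriers were higher in 5 and lower in 6 of 24 tested, metal carriers in 4 and 1 of 22, sugar and monocarboxylate carriers in 2 and 1 of 14, lipid and organic ion carriers in 2 and 0 of 9, inorganic ion carriers in 0 and 1 of 17, and ER and Golgi carriers in 0 and 0 of 5. The 6 lower amino acid carriers include Slc43a3, which carries purine bases and was counted with its family. Slc16a3, which overlaps Csnk1d, read 16.4 and 14.0 RPKM with DMSO and 2.68 and 2.65 with GSK343 (log2 fold change -2.14 ± 0.12 SE, adjusted p = 2.19e-06). Slc7a3 read 88.9 and 98.6, then 38.8 and 44.8 RPKM (log2 fold change -1.15 ± 0.09 SE, adjusted p = 2.02e-05). Slc46a3 read 31.7 and 24.6, then 15.6 and 15.8 RPKM (log2 fold change -0.80 ± 0.12 SE, adjusted p = 0.000944), and Slc41a1 18.8 and 17.8, then 11.8 and 11.3 (log2 fold change -0.63 ± 0.10 SE, adjusted p = 0.0015). In these 4, both treated libraries were below both DMSO libraries. Smaller falls, from -0.33 to -0.49 on the log2 scale, were called in Slc6a9, Slc4a8, Slc43a1, Slc43a3, Slc38a2 and Slc7a1. Each of Slc6a9, Slc4a8, Slc43a1, Slc43a3 and Slc38a2 lost its call without either GSK343 library (adjusted p 0.0576 to 0.256), and Slc7a1 without the second (0.241). Slc6a9 and Slc4a8 also lost it without the second DMSO library (0.0923 and 0.175), and Slc38a2 without the first (0.102).

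Slc1a1 read 1.86 and 1.31 RPKM with DMSO and 5.94 and 5.93 with GSK343 (log2 fold change 1.43 ± 0.14 SE, adjusted p = 7e-05). Slc16a10 read 1.64 and 1.60, then 4.50 and 4.14 RPKM (log2 fold change 1.02 ± 0.13 SE, adjusted p = 0.000351). The choline carrier Slc44a1 read 11.8 and 10.3, then 20.2 and 21.7 RPKM (log2 fold change 0.87 ± 0.11 SE, adjusted p = 0.000313). These 3 were the largest rises. Of 11 tested vitamin, nucleoside and choline carriers 6 were higher and 1 lower, or 4 and 1 with median-of-ratios scaling. Slc19a1 lost its call under median-of-ratios scaling (adjusted p = 0.0826 by limma) and quantile normalization (0.0691), and so did Slc19a2 (0.0643 and 0.0728). Slc23a2 lost its call under quantile normalization (0.0788). The proton-coupled folate carrier Slc46a1, which overlaps Sarm1, read 1.48 and 1.42, then 2.77 and 2.71 RPKM (log2 fold change 0.61 ± 0.13 SE, adjusted p = 0.00758), and lost its call without the first GSK343 library (adjusted p = 0.0501). The nucleoside carrier Slc29a1 read 20.3 and 19.2, then 29.0 and 26.9 RPKM, and lost its call without the first GSK343 library (adjusted p = 0.0658). Slc2a6 rose from 27.7 and 29.4 to 44.6 and 45.5 (log2 fold change 0.64 ± 0.09 SE, adjusted p = 0.00046) and Slc7a7 from 20.7 and 16.8 to 26.7 and 29.6 RPKM (log2 fold change 0.57 ± 0.11 SE, adjusted p = 0.00574), the latter with an adjusted p of 0.079 without the second GSK343 library. Slc22a17, at 0.4 and 0.315, then 1.03 and 1.28 RPKM, and Slc39a10, at 1.81 and 2.11, then 3.42 and 3.53, rose from low levels and lost their calls without the second GSK343 library (adjusted p = 0.0639 and 0.064), Slc39a10 also without the first (0.0509).

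**Figure D4:**
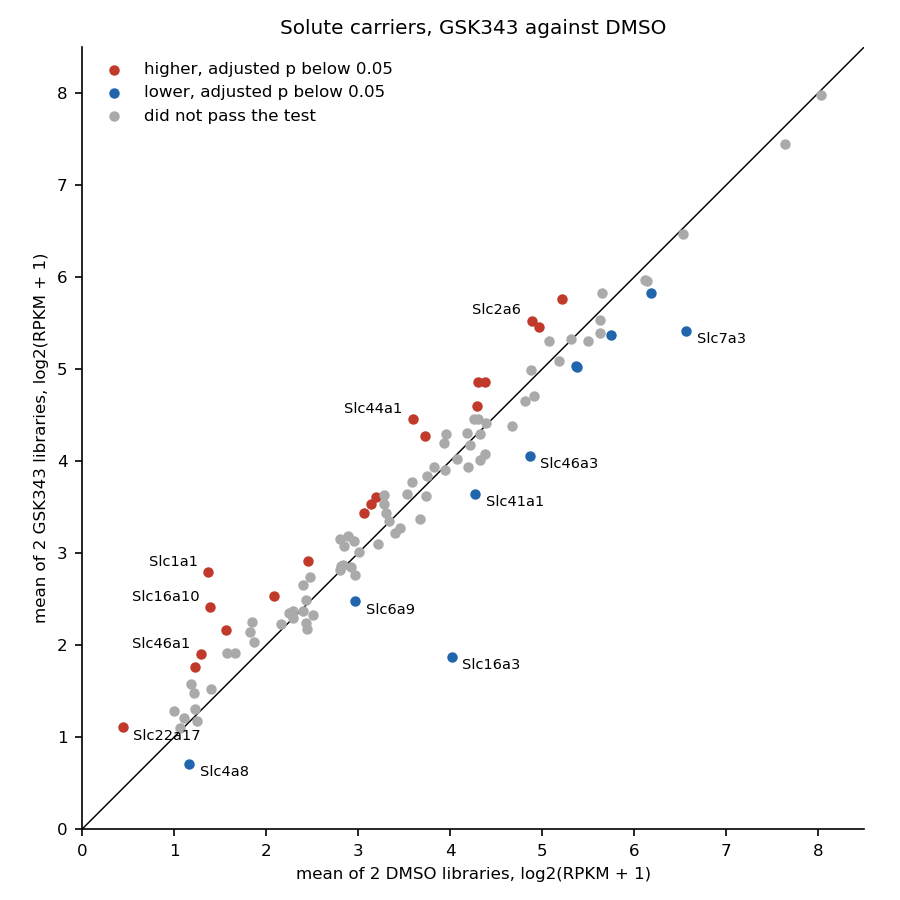
Each of the 105 tested members is placed by its mean over 2 DMSO libraries (horizontal) and 2 GSK343 libraries (vertical), both as log2(RPKM + 1), with a line of equality; coloured points passed the test. Slc16a3 and Slc7a3 lie farthest below the line and Slc1a1 farthest above it.

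Among carriers and partners with other names, 7 of 25 tested were higher with GSK343 and 1 lower. Atp1b1, a subunit of the sodium pump whose gradient drives many carriers, read 12.5 and 9.07 RPKM with DMSO and 55.2 and 45.1 with GSK343 (log2 fold change 2.13 ± 0.14 SE, adjusted p = 5.14e-06). Emb, a chaperone of lactate carriers, read 8.88 and 7.30, then 19.99 and 20.9 RPKM (log2 fold change 1.24 ± 0.12 SE, adjusted p = 4.66e-05). Of 13 metal storage and uptake genes 2 were higher and 2 lower. The lower ones were Mt1 and Mt2, Mt2 at 11.3 and 8.59, then 3.14 and 2.64 RPKM (log2 fold change -1.48 ± 0.15 SE, adjusted p = 7e-05). Summed erythroid or megakaryocyte markers were 11.6 to 14.8 RPKM with DMSO and 21.8 to 32.6 with GSK343, and summed T cell markers, Cd5 foremost, 0.446 to 0.960 and 2.95 to 4.04 RPKM. Their part in these values was not tested.

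The DMSO and the control pre-plasmablasts share a sorting gate and differ in genotype at Cd23, in added solvent and in the kind of table. Ranked among 11165 genes that all tables hold, the median member moved by 5.80 percentiles between them, and 5 members by over 20. How far all genes moved was not computed. Slc43a1, a leucine carrier, read 4.07 and 3.90 RPKM in control pre-plasmablasts and 55.1 and 50.1 with DMSO, from the 29.2 to the 85.5 percentile. Slc16a3 read 0.86 and 2.00 RPKM and then 16.4 and 14.0, from the 16.0 to the 64.8 percentile. These differences cannot be told apart from those of the tables and cultures, and none was tested.

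In the 2 libraries of plasma cells taken directly from mice, 9885 and 9869 of 20605 genes listed once reached 1 RPKM. Of the 121 members, which were chosen for that level in cultured libraries, 109 reached it in both. The most abundant were Slc39a7 at 254 and 261 RPKM, Slc1a5 at 123 and 142, Slc38a10 at 121 and 133, Slc48a1 at 115 and 105, Slc38a2 at 89.9 and 95.9, Slc39a4 at 91.7 and 79.1, Slc33a1 at 66.7 and 64.4 and Slc39a11 at 53.1 and 58.1. Zinc carriers held 3 of these 8 places. The 12 below 1 RPKM in at least 1 plasma cell library included Slc1a1 at 0.153 and 0.0636, Slc7a11 at 0.0308 and 0.0256, Slc16a10 at 0.113 and 0.162 and Slc4a8 at 0.12 and 0.0851 RPKM.

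Since the plasma cell tables are not named as GC-normalized, members were set beside cultured plasmablasts by percentile among the 11165 shared genes, with no test, and 66 of 121 had the higher percentile in plasma cells. The median shift of the members was 0.77 percentiles, and the share of all shared genes with a higher percentile was not computed. Slc7a3 had the largest drop, from the 90.4 percentile (64.8 and 82.6 RPKM in plasmablasts) to the 25.4 (2.53 and 2.75 RPKM in plasma cells). Slc44a2 went from the 64.4 to the 23.9 percentile, the purine base carrier Slc43a3 from the 73.7 to the 38.5, and Slc16a1 from the 69.8 to the 35.4. The plasma cell libraries were thus low in Slc7a3, an arginine carrier that the cultured pre-plasmablasts and plasmablasts expressed highly. Its relative Slc7a1 read 59.0 and 54.1 RPKM in plasmablasts and 36.0 and 38.9 in plasma cells, from the 87.5 to the 81.8 percentile.

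In the other direction, Slc37a1 read 3.82 and 3.67 RPKM in plasmablasts and 19.1 and 16.6 in plasma cells, from the 29.4 to the 65.0 percentile. Slc22a17 read 2.67 and 4.43, then 14.5 and 15.7 RPKM, from the 28.0 to the 60.5 percentile. Slc44a1 read 8.88 and 19.3, then 48.5 and 44.8, from the 56.6 to the 85.6 percentile, and Slc46a1 1.72 and 1.27, then 8.53 and 8.37 RPKM, from the 17.7 to the 46.0. In these 4 the 2 plasma cell libraries lay close to each other. Of the members with both plasma cell libraries at 1 RPKM or more and no cultured library at 5, 21 in all, the highest in plasma cells were Slc37a1, Slc22a17, Slc41a2 (14.2 and 13.8 RPKM) and Slc46a1. The others lay between 1.21 RPKM (Slc9a9) and 6.13 RPKM (Slc35a5).

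The plasma cell libraries also held 41.1 to 83.1 RPKM of the 7 summed myeloid markers, 31.7 to 56.4 of the erythroid or megakaryocyte markers and 9.91 to 15.0 of the T cell markers. Slc11a1, a metal carrier of macrophage phagosomes, read 2.87 and 2.93 RPKM there and 0.885 and 1.37 in control pre-plasmablasts. The part of other cells in the plasma cell values was not tested.

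**Figure D5:**
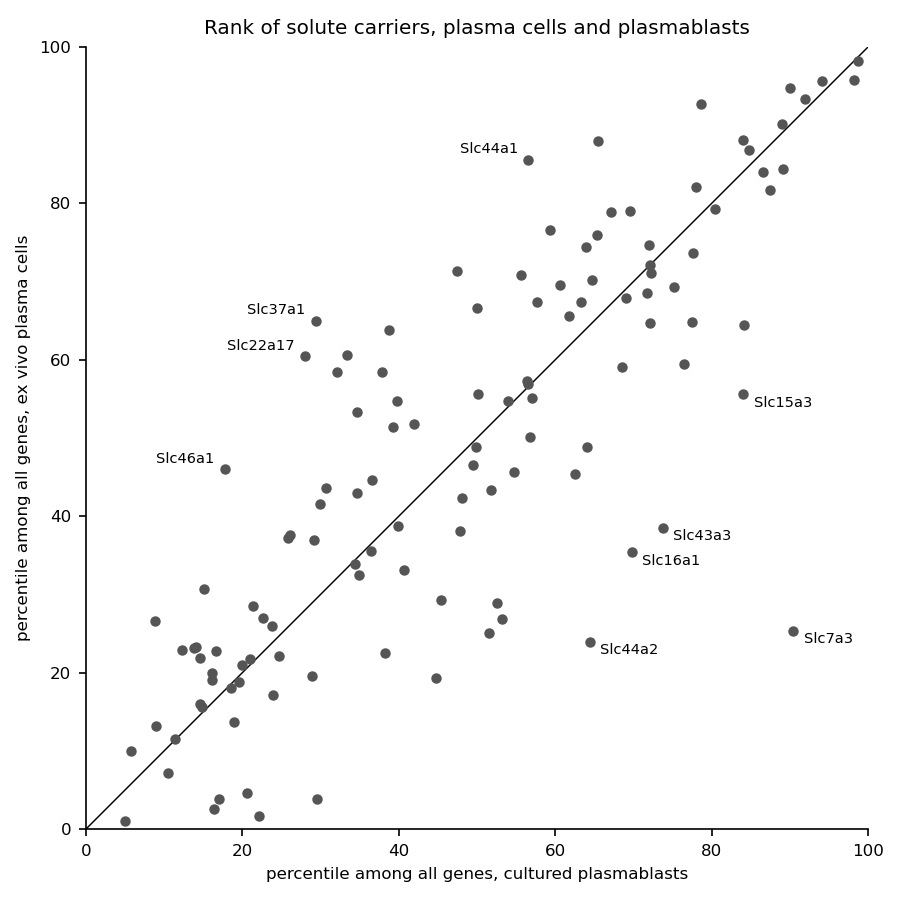
Each of the 121 members is placed by its percentile among 11165 shared genes in cultured plasmablasts (horizontal) and ex vivo plasma cells (vertical), each from the mean of 2 libraries, with a line of equality. Slc7a3 lies farthest below the line and Slc37a1 farthest above it.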

How the data were processed

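RNA was strand-specific, selected for poly(A) and sequenced as 50-base reads, per the labels' protocols. The deposited values are RPKM that the authors computed per gene, in 8 GC-normalized tables and in 4 inhibitor and 2 plasma cell tables without that word in their names. TopHat 1.4.1, HTSeq 0.5.3, DESeq 1.8.3 and the build mm9 are named per the submitters' processing notes, with no role given; the annotation is not given in the sources used here, nor is use of strand in counting. Read depth is unknown: low values of the GC-normalized tables share no common step, so no counting interval was computed. By steps in low values, the second DMSO and the 2 GSK343 libraries had 0.848, 1.01 and 0.832 times the depth of the first DMSO library. Between 9188 and 10077 genes reached 1 RPKM per library.

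In column 1 of the plasma cell tables, 5 read-counter summary names stood among the gene names, which shifted names against values; they were dropped, so that names and values line up, before use. With names as deposited 56 of 121 members would be at 1 RPKM in both libraries, against 109.

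From log2(RPKM + 1), limma 3.58.1 (R 4.3.3, linear model and empirical Bayes with trend) was fitted to genes that reached 1 RPKM in 2 or more libraries of a table: 10473 genes over 4 GC-normalized groups in 1 fit, and 9479 genes in the inhibitor fit. Benjamini-Hochberg adjustment ran over all genes tested, with a threshold of 0.05. The script was tested on simulated data. Plasma cells were compared by percentile only. Library numbers in the GC-normalized tables form 2 series, and libraries of 1 series deviated together from their group means in all 6 pairs of groups (r from 0.666 to 0.781), so the numbers pair the libraries. The alternatives were a pseudocount of 0.25, no filter, median-of-ratios scaling, quantile normalization, no trend, the replicate block, a fit of only the groups compared, and each library left out.

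Named members were the 8 largest called changes each way per comparison, the 2 most abundant and the most changed member of each substrate group, the 8 most abundant in plasma cells, members above 1 RPKM in plasma cells and under 5 RPKM in culture, and the 4 nearest the threshold on each side. One of the members this rule names is not reported here. Further members, such as Slc7a11, Slc1a4, Slc30a5, Slc30a6, Slc30a7, Slc39a13, Slc38a9, Slc17a5, Slc23a2 and Slc29a1, were named after their values were seen. The members and lists were chosen with earlier results of these data known, and Slc7a6os was moved to the non-carriers after the tables were read. Of the 121 members, 23 overlap another protein-coding gene in the GRCm38 gene table. Promoter sequences are from RefSeq (GRCm38.p6).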

Additional observations from a re-analysis of the deposited data

How the results depend on the processing

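Over the alternatives run, no called log2 fold change of a member or listed gene changed sign. Calls were lost for 629 values and gained, with the sign kept, for 221. The other 12362 counted as unchanged, which includes any uncalled value whose sign changed. Counts of called members stayed within 1.5 times the main one for pre-plasmablasts against activated B cells (59 to 75 without 1 library each, against 77), plasmablasts against activated B cells (74 to 86, against 87) and deficient against control pre-plasmablasts (53 to 65, against 71). For plasmablasts against pre-plasmablasts the count of 2 became 1 with a pseudocount of 0.25, 38 with the replicate block, 0 in a fit of these 2 groups alone (26 at an unadjusted p below 0.05 by limma) and 0 to 2 without 1 library each (20 or more unadjusted). For deficient pre-plasmablasts against activated B cells the count of 25 became 49 with the replicate block and 12 to 26 without 1 library each. The replicate block moved no other count by over 1.5 times. It gave 60 higher and 31 lower for pre-plasmablasts against activated B cells (49.6% and 25.6%, against 27.9% and 41.7% of all genes tested). For plasmablasts against activated B cells it gave 61 and 42 (50.4% and 34.7%, against 28.0% and 47.4%). For deficient against control pre-plasmablasts it gave 39 and 50 (32.2% and 41.3%, against 40.4% and 24.9%). The block was not fitted to the inhibitor libraries, whose labels do not pair them. For GSK343 the count of 29 became 0 without a filter on low values (49 unadjusted; the cause was not tested) and 11 to 31 without 1 library each. With plasma cell names as deposited, 56 members in place of 109 were at 1 RPKM or more in both libraries. With 2 libraries per group and unknown read depth, an uncalled member does not show equal levels, and with 1 library left out the lone library was assumed to vary like the others.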

Other observations

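Symbols of the same form that the GC-normalized tables do not list were counted in the other tables. Of 148 such genes, none reached 1 RPKM in both DMSO libraries or in both GSK343 libraries, and 5 did so in both plasma cell libraries. Slc16a5, a monocarboxylate carrier family member, was the most abundant at 39.8 and 42.2 RPKM in plasma cells, and at 0.0254 and 0 RPKM with DMSO. Slc7a4, a relative of the cationic amino acid carriers, read 4.14 and 4.00 RPKM in plasma cells and at most 0.143 RPKM in the 4 inhibitor libraries. Slc12a3 and Slc6a17 were just above 1 RPKM. The band 3 anion exchanger of red cells, Slc4a1, read 5.72 and 2.69 RPKM, and the globin gene Hbb-b1 read 48.8 and 27.2 RPKM in the same libraries. The part of red cell RNA in that value was not tested.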
